A study of Mus musculus with 3 samples.

Results

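The dual-specificity MAP kinase phosphatases examined here were the products of 10 genes, Dusp1, Dusp2, Dusp3, Dusp4, Dusp5, Dusp6, Dusp7, Dusp10, Dusp16 and Dusp22, out of 37322 genes on the array. Their members were chosen by name, as every probe whose deposited gene name was one of these symbols, which gave 15 probes of 56600. The signals of these probes were read on 3 arrays of LT-HSCs (long-term hematopoietic stem cells), which sit in the bone marrow, renew themselves and give rise to all blood cells. The probes followed from the gene names alone, but the genes were chosen with earlier results of these data known.

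MAP kinases are switched on when an upstream kinase phosphorylates both a threonine and a tyrosine in their activation loop. Dual-specificity phosphatases remove both phosphates and switch the kinase off. Several of the genes are themselves induced by the kinases that their products inactivate, so the family forms a negative feedback on ERK, JNK and p38 signaling, the pathways through which HSCs respond to cytokines, inflammation and stress. Family members differ in their place in the cell and in the kinase they prefer.

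The cells were sorted from C57BL/6J mice of 3 genotypes, with 1 array for each. WT was the control, which the paper names Atm+/+ (WT). AtmsKO mice carried CAG-CreERT2 and floxed Atm (Atm fl/fl), and lost Atm, which encodes a kinase that signals DNA breaks. Atmp38dKO mice carried CAG-CreERT2, Atm fl/fl and p38α fl/fl, and were to lose Mapk14 (p38α) as well. CAG is a broadly active promoter and CreERT2 a recombinase that tamoxifen activates, so deletion was not limited to blood cells. Per the methods, control mice were Cre-negative, carried floxed alleles and received tamoxifen too, and both sexes were used. Such controls also differ from both mutants in CreERT2. The labels give an age of 11 weeks, whereas in the series text tamoxifen was given at about 5 weeks and the cells were taken 4 weeks later. The labels describe a CD150+, CD48-, Flt3- and CD34- gate within the LSK (lineage-, Sca-1+, c-Kit+) fraction, the series text names only CD34 and Flt3, and the methods add CD41-. How many mice stood behind an array is not stated.

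The arrays shared 1 slide and 1 scan, and between 68.9% and 77.7% of probes were well above background. Atm was lower on the AtmsKO array, with log2 differences from WT of -2.37 and -1.79 at its 2 probes. On the third array the Atm differences were -1.07 and -0.22, and those of the 2 Mapk14 probes were 0.014 and 0.18. Mapk14 thus went against the label, so this array is called the Atmp38dKO-labelled array. Whether these probes lie in the deleted exons is not given in the sources used here. Of 12 HSC markers, 12 were well above background on every array. The endothelial marker Cdh5 was not well above background on any array. Probes for markers of other cells gave signal too, with 8 of 8 myeloid markers, 4 or 5 of 5 T cell markers and 5 or 6 of 6 B cell and erythroid markers well above background on an array. As most probes of the array passed this flag, it does not show that such cells were present. Itgam, a myeloid surface marker, had signals of 33134, 32383 and 33895 across WT, AtmsKO and the Atmp38dKO-labelled array.

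With 1 array per genotype there was no spread between mice, so no test or p-value is given. Every comparison is between those arrays and not between the genotypes as such. Signals are background-subtracted processed intensities. Differences are log2 differences of the signal after each array was divided by its 75th percentile, and 1 on this scale is 2-fold. The errors given after ± are those that the scanner software modelled for a spot, close to 10% of a bright signal, or about 0.20 on the log2 scale for a difference between arrays. They leave out all variation between mice and sorts. Where a gene had several probes, the one of highest mean signal stood for it. A signal also depends on the probe, so signals are compared between arrays and not between genes.

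The regions upstream of Dusp1, Dusp2 and Dusp5 are shown because these were the inducible nuclear members with the lowest values on the Atmp38dKO-labelled array against WT, a choice made after the values were seen. Each is the 250 bases before the RefSeq start of the gene in GRCm38.p6, written 5′ to 3′ on the strand of the gene. Capitals mark matches on either strand to the cyclic AMP response element (TGACGTCA), its core (TGACG), the E-box (CACGTG) and the CArG box, the site of serum response factor.
Dusp1, chr17:26508473-26508722, minus strand: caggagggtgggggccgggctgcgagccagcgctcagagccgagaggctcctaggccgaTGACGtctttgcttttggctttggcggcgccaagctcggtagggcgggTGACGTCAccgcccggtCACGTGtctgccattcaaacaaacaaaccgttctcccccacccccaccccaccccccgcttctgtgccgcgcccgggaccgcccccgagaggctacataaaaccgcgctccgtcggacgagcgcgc
Dusp2, chr2:127335909-127336158, plus strand: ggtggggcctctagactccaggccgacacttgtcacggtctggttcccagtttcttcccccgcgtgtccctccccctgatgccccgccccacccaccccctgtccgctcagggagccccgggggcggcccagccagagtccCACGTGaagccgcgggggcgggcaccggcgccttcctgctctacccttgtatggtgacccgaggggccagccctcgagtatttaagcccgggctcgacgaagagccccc
Dusp5, chr19:53528895-53529144, plus strand: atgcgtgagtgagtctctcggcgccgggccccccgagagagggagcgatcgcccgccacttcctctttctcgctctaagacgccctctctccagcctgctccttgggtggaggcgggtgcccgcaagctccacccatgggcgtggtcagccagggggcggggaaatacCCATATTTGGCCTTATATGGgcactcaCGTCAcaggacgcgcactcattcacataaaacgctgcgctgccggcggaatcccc

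In the Dusp1 window the full cyclic AMP response element lay from -143 to -136, counted back from the start, and held a core on each strand. Another core began at -191 and an E-box at -126. The Dusp2 window held an E-box at -109. The Dusp5 window held 2 adjoining CArG boxes, from -82 to -73 and from -72 to -63, and a core at -55. Among 32536 such windows of all genes, 1.56% held the full element, 17.9% the core, 6.04% the E-box and 1.48% a CArG box. The search also took in the AP-1 site (TGANTCA, 6.73% of windows), the TATA box (TATAAA, 12.3%), the GC box (GGGCGG, 33.0%), the Egr site (GCGNGGGCG, 4.74%) and the NF-kB site (7.28%). Of the 9 genes with a window, 7 held a GC box, 3 an Egr site, 3 a core and 2 an E-box, while the full element, the CArG box and the NF-kB site were each in 1 gene, in Dusp1, Dusp5 and Dusp22 in that order. Neither an AP-1 site nor a TATA box was matched in any of the 9 windows. The windows of the 9 genes were rich in G and C, from 56.4% for Dusp6 to 77.6% for Dusp22. A match of letters is a description and not a binding site.

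For AtmsKO against WT, 1 of the 10 genes was higher by at least 2-fold, beside 3.79% of the 29040 genes considered, and 0 were lower by at least 2-fold, beside 3.98%. The gene that was higher was Dusp3. On the Atmp38dKO-labelled array, 0 of 10 were at least 2-fold higher than WT, beside 3.93% of 30645 genes, and 1 of 10, Dusp2, was at least 2-fold lower, beside 4.41%. Against AtmsKO the Atmp38dKO-labelled array had 0 of 10 genes at least 2-fold higher, with 3.70% of 30201 genes, and 2 of 10 at least 2-fold lower, Dusp2 and Dusp22, with 3.62%. The comparisons share arrays and are not independent of each other. In RNA from a sorted population, fewer cells of a type and less RNA per cell cannot be told apart.

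**Figure D1:**
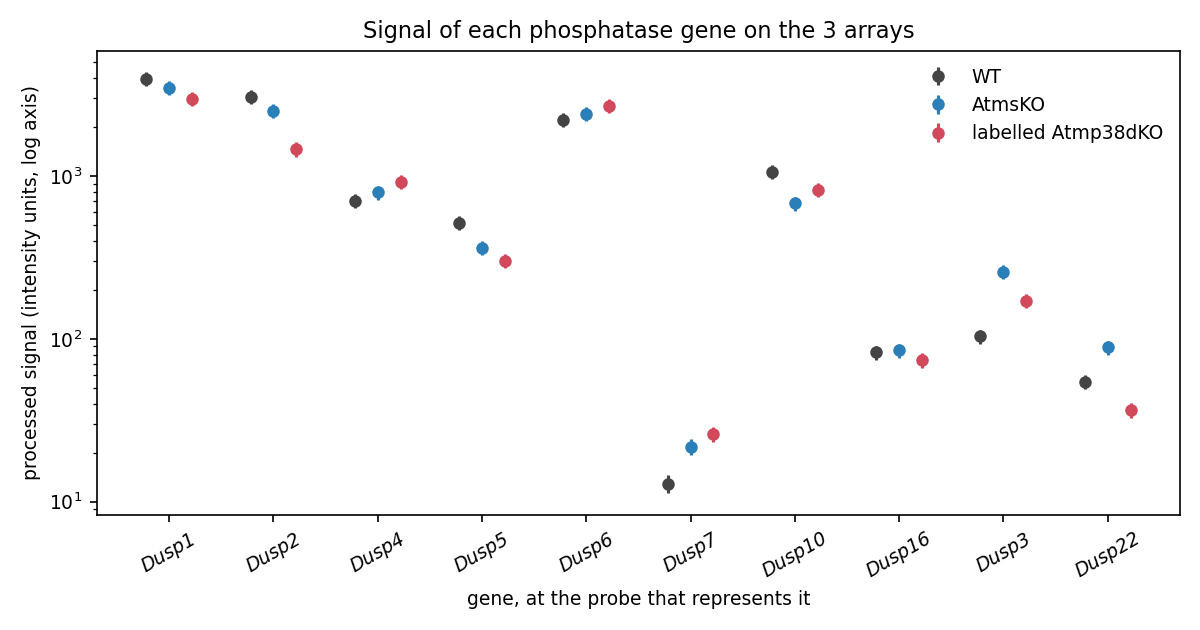
Processed signal of each of the 10 genes across WT, AtmsKO and the Atmp38dKO-labelled array, at the probe that represents the gene, on a log axis. Bars are the modelled error of the spot, and Dusp2 stands out by its fall from 3076 on the WT array to 1463 on the Atmp38dKO-labelled array.

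The nuclear, inducible members were Dusp1, Dusp2, Dusp4 and Dusp5. Dusp1 (MKP-1) is an immediate early gene whose product acts on p38, JNK and ERK. Its probe (chr17:26642624-26642683, mm9) gave 3977 ± 398 on WT, 3485 ± 348 on AtmsKO and 2979 ± 298 on the Atmp38dKO-labelled array. WT was highest and the Atmp38dKO-labelled array lowest. The log2 difference was -0.11 between AtmsKO and WT, -0.63 between the Atmp38dKO-labelled array and WT and -0.52 between it and AtmsKO. The last pair lay outside the middle 95% of genes of like brightness, which ran from -0.46 to 0.27 against WT and from -0.46 to 0.29 against AtmsKO. Genes of like brightness were those within 0.5 log2 units of the mean level. Dusp1 stayed under 2-fold in all 3 comparisons.

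Dusp2 (PAC-1) encodes a nuclear phosphatase first known from activated lymphocytes. Its probe (chr2:127163930-127163989, mm9) gave 3076 ± 308 on WT, 2525 ± 253 on AtmsKO and 1463 ± 146 on the Atmp38dKO-labelled array. The order of the arrays was that of Dusp1, with a wider gap to the lowest array. The AtmsKO array differed from WT by -0.21 ± 0.20 on the log2 scale, about the size of the modelled error. The Atmp38dKO-labelled array differed from WT by -1.29 ± 0.20, or 41.0% of the WT level, and from AtmsKO by -1.08 ± 0.20, or 47.3% of that level. Among 790 genes of like brightness the middle 95% ran from -0.67 to 0.37 against WT and from -0.47 to 0.34 against AtmsKO, so Dusp2 lay outside both. It was the only one of the 10 genes that was at least 2-fold lower than on both other arrays. Dusp2 kept a difference of at least 2-fold from WT in all 9 alternative ways of computing it, and from AtmsKO in 8 of 9. Several of these could not change it. It has 1 probe, detected on every array, so the floor, the background filter and the choice of probe had no effect. The authors' values are of the same intensities. Normexp background correction gave -1.18 from WT and -0.96 from AtmsKO, and quantile normalization -1.24 and -1.01.

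Dusp5 encodes an inducible nuclear phosphatase that is specific for ERK, and its promoter window holds the paired CArG boxes shown above. Its representing probe, on an Ensembl transcript (chr19:53616779-53616838, mm9), gave 516 ± 51.7 on WT, 364 ± 36.4 on AtmsKO and 302 ± 30.2 on the Atmp38dKO-labelled array. These were log2 differences of -0.43 and -0.99 against WT and of -0.56 for the Atmp38dKO-labelled array against AtmsKO. The fall of 1.99-fold from WT was just short of 2-fold and passed it under 2 of the 9 alternatives. The other probe of Dusp5, on the RefSeq messenger RNA (chr19:53615682-53615741, mm9), gave 47.6 ± 4.88, 42.1 ± 4.39 and 48.9 ± 5.00 across WT, AtmsKO and the Atmp38dKO-labelled array. Its log2 differences were -0.10 and -0.17 against WT and -0.074 against AtmsKO, each within the modelled error. The fall of Dusp5 therefore rested on its representing probe.

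Dusp4 (MKP-2) encodes an inducible nuclear phosphatase of ERK and JNK. Its representing probe was on a cDNA clone that the file describes as unclassifiable (chr8:35884806-35884865, mm9), and gave 705 ± 70.5 on WT, 795 ± 79.5 on AtmsKO and 921 ± 92.1 on the Atmp38dKO-labelled array. These were log2 differences of 0.25 and 0.17 against WT and of -0.080 for the Atmp38dKO-labelled array against AtmsKO. The probe on the RefSeq messenger RNA (chr8:35882045-35882104, mm9) gave 78.6 ± 7.97, 45.4 ± 4.78 and 59.0 ± 6.02 in that order, or differences of -0.71 and -0.63 against WT and of 0.084 against AtmsKO. The probes of Dusp4 thus gave opposite signs in all 3 comparisons, and no direction is given for the gene.

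The starts of the probes that disagreed are shown because the direction or size for Dusp4 and Dusp5 turns on them. Each line holds the first 30 bases of the 60-base probe as deposited.
Dusp4, cDNA clone: tcaagggacttcagtaagataacaatgcaa
Dusp4, RefSeq messenger RNA: aataacggcggtttccgctgccagagaaga
Dusp5, Ensembl transcript: cagggggaaaggcaataagttcccgtaaac
Dusp5, RefSeq messenger RNA: tacagacactgagccctgatatgcagggca

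**Figure D2:**
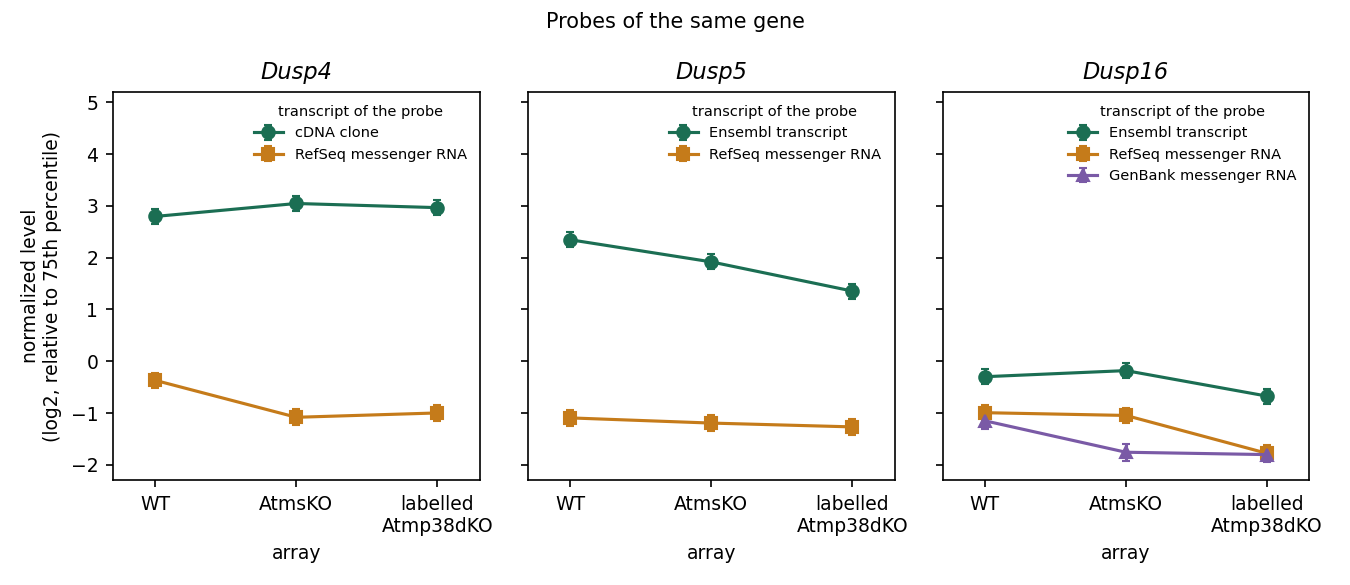
Normalized log2 level, relative to the 75th percentile of each array, of every probe of Dusp4, Dusp5 and Dusp16 on the 3 arrays, with bars for the modelled error. The Dusp4 probes moved in opposite directions from WT, and of the Dusp5 probes the Ensembl one fell while the RefSeq one stayed within its error.

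Dusp6 and Dusp7 encode the cytoplasmic phosphatases that are specific for ERK, and Dusp6 (MKP-3) is a common readout of ERK activity. The Dusp6 probe (chr10:98729985-98730044, mm9) gave 2212 ± 221 on WT, 2414 ± 241 on AtmsKO and 2706 ± 271 on the Atmp38dKO-labelled array. After scaling, the log2 differences were 0.20 and 0.076 against WT and -0.13 for the Atmp38dKO-labelled array against AtmsKO, none larger than the modelled error of 0.20. Dusp6 was thus even across the arrays on which Dusp2 differed. Dusp7 (MKP-X) was dim. Its probe (chr9:106277697-106277756, mm9) gave 12.9 ± 1.68 on WT, 21.8 ± 2.50 on AtmsKO and 26.1 ± 2.80 on the Atmp38dKO-labelled array. WT was lowest, and the log2 differences were 0.83 and 0.80 against WT and -0.029 against AtmsKO. At this brightness the middle 95% of genes ran from -1.65 to 1.56 for AtmsKO against WT, and Dusp7 lay inside it. With normexp background correction the differences from WT shrank to 0.24 and 0.14.

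Dusp10 and Dusp16 encode phosphatases that prefer p38 and JNK to ERK. Dusp10 (MKP-5) was read by a probe (chr1:185898608-185898667, mm9) with 1061 ± 106 on WT, 679 ± 68.0 on AtmsKO and 823 ± 82.3 on the Atmp38dKO-labelled array. Both arrays of mutant mice were below WT. The log2 difference from WT was -0.57 for AtmsKO and -0.58 for the Atmp38dKO-labelled array, and the mutant arrays differed from each other by -0.016. Both differences from WT lay outside the middle 95% of 1411 genes of like brightness, which ran from -0.42 to 0.51 for AtmsKO and from -0.52 to 0.49 for the Atmp38dKO-labelled array. Both comparisons rest on the same WT array.

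Dusp16 (MKP-7) was read by 3 probes. The representing probe, on an Ensembl transcript (chr6:134687549-134687608, mm9), gave 82.5 ± 8.35, 84.9 ± 8.61 and 73.9 ± 7.48 across WT, AtmsKO and the Atmp38dKO-labelled array. The probe on the RefSeq messenger RNA (chr6:134665783-134665842, mm9) gave 51.0 ± 5.25, 46.6 ± 4.88 and 34.3 ± 3.62. The third, on a GenBank messenger RNA (chr6:134665656-134665696, mm9), gave 45.8 ± 4.74, 28.5 ± 3.17 and 33.8 ± 3.56. The Atmp38dKO-labelled array was below WT at all 3 probes, by log2 differences of -0.37, -0.79 and -0.65, and none reached 2-fold. For AtmsKO against WT the probes gave 0.12, -0.053 and -0.61, so they did not share a direction.

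Dusp3 and Dusp22 encode small phosphatases that lack the MAP kinase binding domain of the others. Dusp3 (VHR) acts on ERK and JNK, and its probe (chr11:101832460-101832519, mm9) gave 103 ± 10.4 on WT, 259 ± 25.9 on AtmsKO and 172 ± 17.2 on the Atmp38dKO-labelled array. AtmsKO was highest and WT lowest. The log2 difference of AtmsKO from WT was 1.40 ± 0.20, or 2.64-fold, outside the middle 95% of 3282 genes of like brightness, which ran from -0.82 to 0.80. The Atmp38dKO-labelled array differed from WT by 0.52 and from AtmsKO by -0.88. Dusp3 kept a difference of at least 2-fold between AtmsKO and WT in all 9 alternatives, from 1.00 with normexp background correction to 1.40 with the log2 values of the authors. As for Dusp2, several of these could not change it, since it has 1 probe that was detected on every array.

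Dusp22 (JKAP, JSP-1) encodes a phosphatase known for its effects on JNK signaling and on T cell receptor signaling. Its probe on the RefSeq messenger RNA (chr13:30800558-30800617, mm9) gave 54.7 ± 5.59 on WT, 88.5 ± 8.96 on AtmsKO and 36.6 ± 3.84 on the Atmp38dKO-labelled array. The mutant arrays thus lay on either side of WT, by 0.77 for AtmsKO and -0.79 for the Atmp38dKO-labelled array on the log2 scale. Between them the difference was -1.57 ± 0.21, or 33.8% of the AtmsKO level, outside the middle 95% of genes of like brightness (-1.11 to 1.14). With normexp background correction it was -0.86 and no longer reached 2-fold. The other Dusp22 probe (chr13:30797880-30797939, mm9) gave 4.09, 6.25 and 5.87 and was not well above background on any array. It was the only 1 of the 15 probes for which this held on any array.

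**Figure D3:**
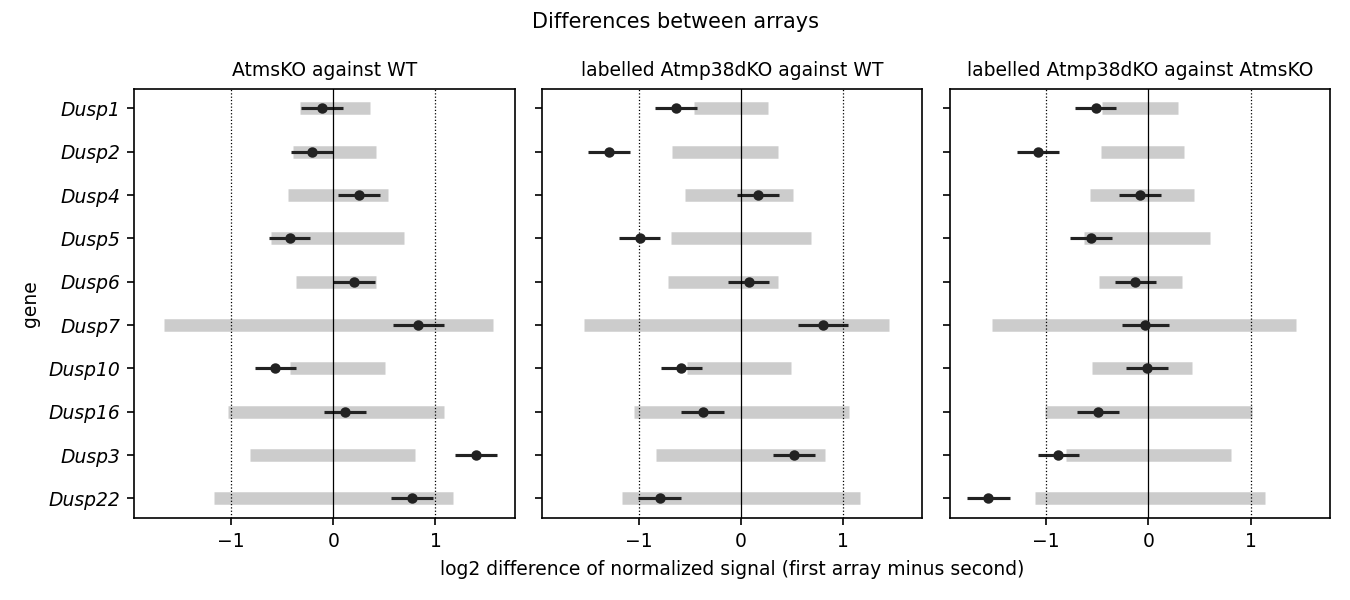
Log2 difference of normalized signal for each gene at its representing probe in the 3 comparisons. Points are the 10 genes, black bars the modelled error, grey bars the middle 95% of genes of like brightness and dotted lines 2-fold, and Dusp2 and Dusp5 (against WT), Dusp2 and Dusp22 (against AtmsKO) and Dusp3 (AtmsKO against WT) lie farthest outside the grey bars.

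Over all 10 genes, the median log2 difference was 0.16 between AtmsKO and WT, -0.48 between the Atmp38dKO-labelled array and WT and -0.51 between it and AtmsKO. The same median over all genes considered was 0.0079, 0.019 and -0.0046. Below 0 were 4, 6 and 10 of the 10 genes, beside 49.0%, 47.9% and 50.5% of all genes. In the last comparison bright genes leaned below 0. Genes of like brightness had medians of -0.095 for Dusp1, -0.073 for Dusp2, -0.074 for Dusp6, -0.047 for Dusp4, -0.045 for Dusp10 and -0.015 for Dusp5. For the dimmer Dusp3, Dusp7, Dusp16 and Dusp22 these medians were 0.015, 0.052, 0.019 and 0.033. The 10 of 10 includes Dusp10 at -0.016, Dusp7 at -0.029, Dusp4 at -0.080 and Dusp6 at -0.13, all smaller than the modelled error, and Dusp10 turned to 0.070 with normexp background correction and to 0.034 with quantile normalization and Dusp4 to 0.084 at its RefSeq probe. The median for AtmsKO against WT changed sign with the choice of probe, to -0.15 with the mean over probes and to -0.077 at the brightest RefSeq messenger RNA probe. The members were not uniform. At the representing probes on the Atmp38dKO-labelled array, Dusp1, Dusp2, Dusp5, Dusp10, Dusp16 and Dusp22 were below WT by more than the modelled error. Dusp3 and Dusp7 were above by more than it, and Dusp4 and Dusp6 were within it. The RefSeq probes read otherwise for Dusp4, at -0.63 ± 0.21, and for Dusp5, at -0.17 ± 0.21.

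The genes of the kinase cascades that these phosphatases act on were described from lists, which like those below were written with earlier results of these data known. Of 11 genes of the ERK module, 7 of the JNK module and 11 of the p38 module, 0 were at least 2-fold from WT on the Atmp38dKO-labelled array, with medians of -0.00022, 0.19 and 0.032. For AtmsKO against WT, 1 of 11 p38 module genes was at least 2-fold lower. This was Map3k5 (ASK1), a kinase upstream of p38 and JNK, with 108, 21.3 and 69.1 across WT, AtmsKO and the Atmp38dKO-labelled array. Map3k5 was at least 2-fold higher on the Atmp38dKO-labelled array than on AtmsKO, as were Mapk9 (JNK2), with 148, 119 and 301, and Mapk12 (p38γ), with 22.9, 11.1 and 32.9. Of 8 other phosphatases of MAP kinases, 0 reached 2-fold in any comparison. The brightest of them, Ppp2ca and Ppp2cb, the catalytic subunits of PP2A, gave 1577, 1551 and 1538 and 734, 732 and 764. After scaling, they differed from WT by 0.053 and 0.073 on AtmsKO and by -0.25 and -0.16 on the Atmp38dKO-labelled array.

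Sprouty, Spred and related genes encode other feedback inhibitors of ERK. Of the 7 of 9 that were detected, 0 were at least 2-fold lower than WT on either mutant array, and their medians against WT were 0.10 for AtmsKO and 0.13 for the Atmp38dKO-labelled array. On each mutant array 5 were above WT and 2 below. Spred2, named after its value was seen, was the lowest, at -0.97 for AtmsKO and -0.86 for the Atmp38dKO-labelled array. Errfi1, an inhibitor of the EGF receptor family, was 3.50-fold higher on AtmsKO than on WT at low signals of 6.64, 22.0 and 9.91 across WT, AtmsKO and the Atmp38dKO-labelled array.

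Immediate early genes respond within minutes to the same kinases. On the Atmp38dKO-labelled array, 8 of 20 such genes were at least 2-fold below WT, beside 4.41% of all genes, with a median of -0.89. Against AtmsKO, 7 of 20 were at least 2-fold lower on that array, beside 3.62%, with a median of -0.73. For AtmsKO against WT 0 of 20 reached 2-fold and the median was -0.19. Egr1 gave 25186, 20033 and 10604 and Jun 3652, 2740 and 1318 across WT, AtmsKO and the Atmp38dKO-labelled array. Atf3 gave 440, 267 and 131. Each of these ordered the arrays as Dusp1 and Dusp2 did. Fosl2, with 1894, 3185 and 1496, did not. Above WT on the Atmp38dKO-labelled array were 2 of the 20, Egr2 with 201, 224 and 366 and Klf2 with 5907, 4084 and 7691, both named after their values were seen. After scaling, these were log2 differences from WT of 0.65 and 0.17 on that array. Zfp36, whose product degrades messages with AU-rich elements, gave 12556, 12847 and 6698 and was lower by -1.12 against WT and -1.23 against AtmsKO, the only 1 of 6 genes of such binding proteins at 2-fold.

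Heat shock genes, which encode chaperones induced by stress, also differed. Against WT, 3 of 8 were at least 2-fold lower on the AtmsKO array, beside 3.98% of all genes. On the Atmp38dKO-labelled array 4 of 8 were, beside 4.41%. The medians were -0.53 and -1.03. Hspa1a gave 11889, 4782 and 3383, Hspa1b 6430, 2691 and 1784, Hsph1 7005, 2738 and 2958 and Dnajb1 21834, 13095 and 10345 across WT, AtmsKO and the Atmp38dKO-labelled array. Hspa1a, Hspa1b and Hsph1 were at least 2-fold below WT on the AtmsKO array, where the log2 differences of Dusp1, Dusp2 and Dusp5 were -0.11, -0.21 and -0.43. The part of what moved the immediate early and heat shock genes in the lower Dusp1, Dusp2 and Dusp5 signals was not tested.

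**Figure D4:**
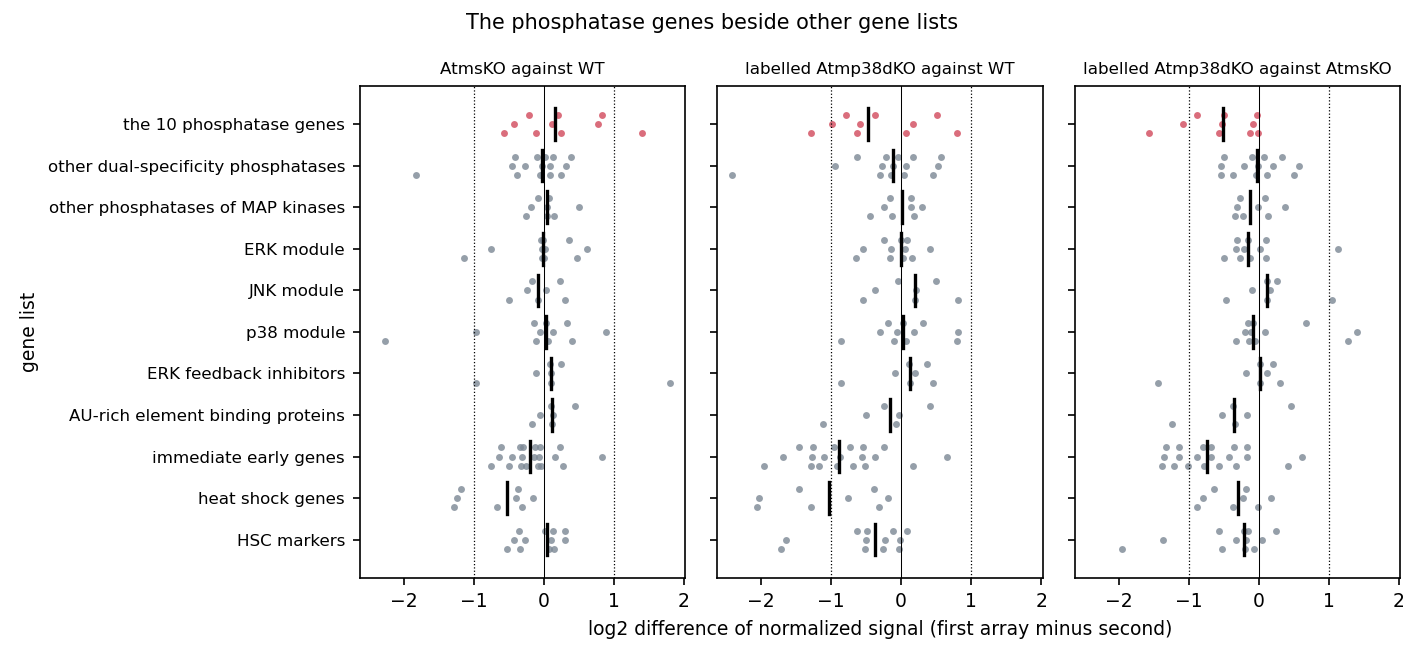
Log2 difference of normalized signal in the 3 comparisons for the 10 phosphatase genes and 10 other gene lists, with a point for each gene, a black line for the median of the list and dotted lines at 2-fold. On the Atmp38dKO-labelled array the medians of the immediate early genes (-0.89), heat shock genes (-1.03) and the 10 phosphatase genes (-0.48) lie below 0 against WT. So do those of HSC markers (-0.37), AU-rich element binding proteins (-0.16) and other dual-specificity phosphatases (-0.11), while the ERK module is at -0.00022. The other lists have medians above 0, up to 0.19 for the JNK module.

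Markers of the sorted cells and of other cells moved beside these values. Of 12 HSC markers, 2 were at least 2-fold lower on the Atmp38dKO-labelled array than on WT, and 2 than on AtmsKO. The shares of all genes were 4.41% and 3.62%. The marker medians were -0.37 against WT and -0.21 against AtmsKO, with 11 of 12 below WT and 10 of 12 below AtmsKO. Of the 4 genes that the gate sorts against, 3 were above WT on that array and 4 above AtmsKO. Relative to the 75th percentile of each array, the summed signal of genes that the gate sorts against was 19.3, 19.5 and 21.1 across WT, AtmsKO and the Atmp38dKO-labelled array. In the same order T cell markers summed to 6.64, 6.84 and 7.76, erythroid markers to 2.49, 2.61 and 3.13 and B cell markers to 6.06, 6.03 and 6.09. Myeloid markers summed to 377, 388 and 339 and endothelial and stromal markers to 2.86, 2.92 and 2.04. On the Atmp38dKO-labelled array the T cell and erythroid sums were thus the highest of the arrays, the myeloid and the endothelial and stromal sums the lowest, and the B cell sum nearly even. A sum leans on its brightest genes, and the myeloid sum was mostly Itgam. Gene by gene, 4 of 8 myeloid, 3 of 5 T cell and 6 of 6 erythroid markers were above WT on that array. So were 2 of 6 B cell and 1 of 5 endothelial and stromal markers. Per the methods, the lineage antibodies of the sort were directed at CD4, CD8, B220, TER-119, Mac-1 (Itgam) and Gr-1, so the gate removes mature cells that carry these proteins. The part of other cells in the Dusp2 and Dusp22 values was not tested.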

How the data were processed

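Total RNA from sorted LT-HSCs was labelled with Cy3 and hybridized to 1-colour Agilent mouse arrays. Per the labels, the authors' contractor extracted the spots with Agilent Feature Extraction 11.5.1.1. The deposited scanner files hold the processed intensity, which is background-subtracted and not normalized between arrays, the mean and background intensity, flags and modelled errors, with probe positions on mm9 per the file headers. The deposited log2 table holds the authors' values of the same arrays. After a shift it equaled log2 of the processed intensity within 0.02 for 99.8% of 56600 probes on the array with the lowest share, and it served as an alternative.

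Control and outlier spots were left out and spots of a probe averaged. A probe counted as detected when over 50% of its spots carried the flag for well above background. The main measure was log2 of the processed intensity minus the 75th percentile of the array, so only relative levels remained. Undetected values were set no lower than the lowest detected signal of their array. Genes were named through RefSeq accessions (assembly GRCm38.p6, names only, 32989 of 56605 probes) and otherwise kept the file's name. A gene was considered in a comparison when detected on 1 or both of the arrays, and called at 2-fold when detected on the brighter array. Groups were taken from the labels. With 1 array per group no test was possible, and depth is that of the arrays, whose number limits the precision.

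Promoter sequences are those of RefSeq in GRCm38.p6. Of the 10 genes, 9 had an entry, and Dusp4 is named only. Window and motif counts used 250 bases before the start.

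The named genes were all 10 members with every probe, Atm and Mapk14, and from each other list up to 4 genes with the largest difference of at least 2-fold and above background on both arrays, or else the brightest 2. Marker lists were described by counts and sums. The result of 1 gene that this rule names is left out. Itgam and Cdh5 were named after their values were seen. The members and all lists were chosen with earlier results of these data known. Alternatives were another background correction (normexp in limma 3.58.1, R 4.3.3), other scalings, quantile normalization, the authors' log2 values, no floor, another treatment of probes, and thresholds of 1.5-fold and 4-fold. The functions were tested on simulated data. Python 3.11.15, numpy 2.4.6, pandas 2.3.3 and matplotlib 3.10.9 were used.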

Additional observations from a re-analysis of the deposited data

How the results depend on the processing

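No paired analysis was possible because with 1 array per genotype there was nothing to pair. Leaving out a replicate was not possible, and leaving out an array leaves only the comparison of the other arrays, as given. The medians and counts over the 10 genes moved as follows. With normexp background correction the median was -0.34 between the Atmp38dKO-labelled array and WT and -0.36 between it and AtmsKO, and 0 genes were at least 2-fold lower than AtmsKO, where 0.43% of all genes were. Centring on the median, or taking the 75th percentile over detected probes, put 2 genes (Dusp2 and Dusp5) at least 2-fold below WT on that array, beside 4.55% and 4.54% of all genes. With the mean over detected probes the medians were -0.15 (AtmsKO against WT, a change of sign), -0.58 and -0.37 (the Atmp38dKO-labelled array against WT and AtmsKO). With the brightest RefSeq messenger RNA probe, an alternative chosen after seeing the data, they were -0.077 (again a change of sign), -0.61 and -0.32. At 1.5-fold, 3 genes were higher on AtmsKO than on WT (9.96% of all genes), and on the Atmp38dKO-labelled array 1 was higher (10.8%) and 4 were lower (10.6%) than WT and 3 lower than AtmsKO (8.75%). At 4-fold 0 genes were higher on AtmsKO than on WT, and on the Atmp38dKO-labelled array 0 were lower than WT and 0 lower than AtmsKO, beside 0.806%, 0.839% and 0.841% of all genes. The causes of these changes were not tested beyond the construction of each alternative. Of 270 values for single genes, 228 moved by less than the spread between spots of a probe (0.05 on the log2 scale) and 42 by more, 0 of which turned a 2-fold difference around. Many of the 228 could not move. The representing probes were detected on every array, so the floor and the background filter left them as they were. Several genes had a single probe, and the authors' values are of the same intensities. The count of 228 is therefore no measure of robustness. The modelled error covers the spot only, and near the background a difference rests on few intensity units.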

Other observations

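Dual-specificity phosphatases outside the 10 genes mostly stayed under 2-fold across the arrays. Of 16 such genes, 15 were well above background on WT or AtmsKO and 15 on WT or the Atmp38dKO-labelled array. The medians of their log2 differences were -0.017 between AtmsKO and WT, -0.11 between the Atmp38dKO-labelled array and WT and -0.024 between it and AtmsKO. On the Atmp38dKO-labelled array 6 were above WT and 9 below, from -2.42 or lower to 0.56. In each comparison with WT 1 gene was at least 2-fold lower and 0 were higher, and between the mutant arrays 0 were at 2-fold in either direction. The gene was Dusp26, named after its value was seen, which gave 22.9 on WT and, not well above background, 5.39 on AtmsKO and 3.37 on the Atmp38dKO-labelled array. This makes it at least 3.54-fold and at least 5.34-fold lower. Next lowest against WT on the Atmp38dKO-labelled array was Dusp28, also named after its value was seen, at -0.95. The brightest 2 of the list, Dusp12 and Dusp11, gave 183, 207 and 292 and 215, 153 and 162 across WT, AtmsKO and the Atmp38dKO-labelled array. Dusp8 and Dusp9, the remaining classical MAP kinase phosphatases, were detected on all arrays at signals of 20.7, 15.1 and 23.2 and of 9.79, 8.65 and 10.5, and neither reached 2-fold. Dusp21 was not well above background on any array.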
